A study of Mus musculus with 16 samples.

Results

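The genes described are the 47 mouse genes whose platform symbol carries one of the proteasome prefixes, from Psma to Psmg, followed by a digit, out of 17097 genes with a probe set of their own on the array. Of these, 45 encode a proteasome subunit, activator, inhibitor or assembly chaperone. The other 2, Psmc3ip, a factor of meiotic recombination, and Psme3ip1, a partner of the PA28 gamma activator, match by name only and are no subunits. Each gene is represented by its brightest single-gene probe set, and 17 members have several, 74 in all. Psmc6, Psmd10, Psme2b and Psme4 were not analysed here.

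The study profiled sorted naive T cells from Tsc1-deficient and wild-type mice on the C57BL\6 background on 16 Affymetrix arrays. The groups were Tsc1-deficient and wild-type CD8 cells at 0 h, with 2 arrays per genotype, Tsc1-deficient and wild-type CD4 cells stimulated for 4 h with immobilized anti-CD3 and anti-CD28, with 3, and Tsc1-deficient and wild-type CD4 cells at 0 h, with 3. Tsc1 encodes a subunit of the complex that restrains the growth-promoting kinase mTORC1, and the question is which transcripts follow its loss at rest and early in activation. The labels do not say how Tsc1 was deleted, in which cells, or whether arrays came from separate mice, so the p-values reflect variation among these arrays that may be technical, and precision is limited by how few there are.

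The proteasome is the protease complex that degrades ubiquitin-tagged proteins. Its core particle is a barrel of alpha rings, which form the gate, and beta rings, which hold the catalytic subunits. The regulatory particle caps the barrel, with a base of ATPases that unfold the substrate and a lid that removes ubiquitin, and the PA28 proteins form an alternative cap. Lymphocytes can replace the catalytic subunits Psmb5, Psmb6 and Psmb7 by Psmb8, Psmb9 and Psmb10, which makes the immunoproteasome, a form induced by interferon gamma that alters the peptides offered to MHC class I. Dedicated chaperones, among them Psmg1 to Psmg4 for the core and Psmd5 and Psmd9 for the base, assist assembly and leave the finished particle.

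Values are log2 signals, changes are differences of group means on that scale with standard errors, and a gene is called at an adjusted p under 0.05 from limma over all 17097 genes. Tsc1 itself was lower in all 3 genotype comparisons. Its log2 signal was 6.42, 6.54 and 6.50 in Tsc1-deficient CD4 cells at 0 h, against 7.25, 7.39 and 7.29 in wild-type CD4 cells. Its change was -0.55 ± 0.12 in CD8 cells, -1.06 ± 0.09 in CD4 cells at 4 h and -0.83 ± 0.09 in CD4 cells at 0 h. Replicate arrays correlated at 0.992 to 0.997. The 3′ minus 5′ difference of the Gapdh control probe sets, a sign of RNA quality, was 0.96 on Tsc1-deficient CD4 4 h replicate 1 and 0.64 on Tsc1-deficient CD8 replicate 2, against 0.02 to 0.40 on the others, so results that rest on these 2 arrays are also given without them. The CD4 and CD8 labels were borne out by Cd8a, which differed by 6.03 between Tsc1-deficient CD8 and CD4 cells and by 5.09 between the wild-type groups.

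All but 2 of the 45 proteasome genes were above the table median of 3.36. The exceptions were Psma8, a testis form of an alpha subunit, with a mean of 2.29, and Psmb11, the catalytic subunit of cortical thymic epithelium, with 2.36. The other 43 had means between 6.68 and 11.5, and 5055 genes of the array were at least as bright as the dimmest of them. The mean log2 signal of the 43 expressed genes was 9.31 to 9.39 in Tsc1-deficient CD4 cells at 0 h and 9.12 to 9.14 in wild-type CD4 cells at 0 h. In CD8 cells it was 9.47 and 9.26 in the Tsc1-deficient arrays, the lower being the array with the raised Gapdh difference, and 9.13 and 9.16 in the wild-type arrays, so the genotypes did not overlap at rest in either lineage. At 4 h it was 9.24, 9.36 and 9.36 in Tsc1-deficient CD4 cells, the lowest again the array with the raised Gapdh difference, and 9.21, 9.31 and 9.29 in wild-type cells. The overlap at 4 h rests on that array, without which both deficient arrays were above the 3 wild-type arrays. In sorted cell populations such as these, fewer cells of a type and less RNA per cell cannot be told apart.

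In resting CD4 cells, Tsc1 deficiency went with small increases spread over the core, the cap and the chaperones. Of the 47 members 9 rose and 0 fell, and 3.96% and 1.87% of all genes were called in these directions. The change was above 0 in 40 of the 45 proteasome genes, with a median of 0.23, where the median of all genes was 0.01. In 37 of the 45 every Tsc1-deficient array was above every wild-type array, and in 1, Psmg2, every array was below. Such separation was seen in 16.5% of all genes upward and 12.1% downward, and among the 5055 genes of like brightness 6.73% rose and 28.3% separated upward. The 9 risen members were Psmd9, Psmb5, Psmb2, Psmb10, Psmd13, Psmc5, Psmg3, Psmd14 and Psmb6, with changes of 0.60, 0.56, 0.44, 0.43, 0.43, 0.38, 0.35, 0.34 and 0.32. When each of the 6 arrays was left out in turn the count lay between 3 and 7, and Psmb5, Psmd9 and Psmd13 kept their call each time. The count fell to 3 or 4 without any wild-type array or without Tsc1-deficient replicate 1 or 2.

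**Figure D1:**
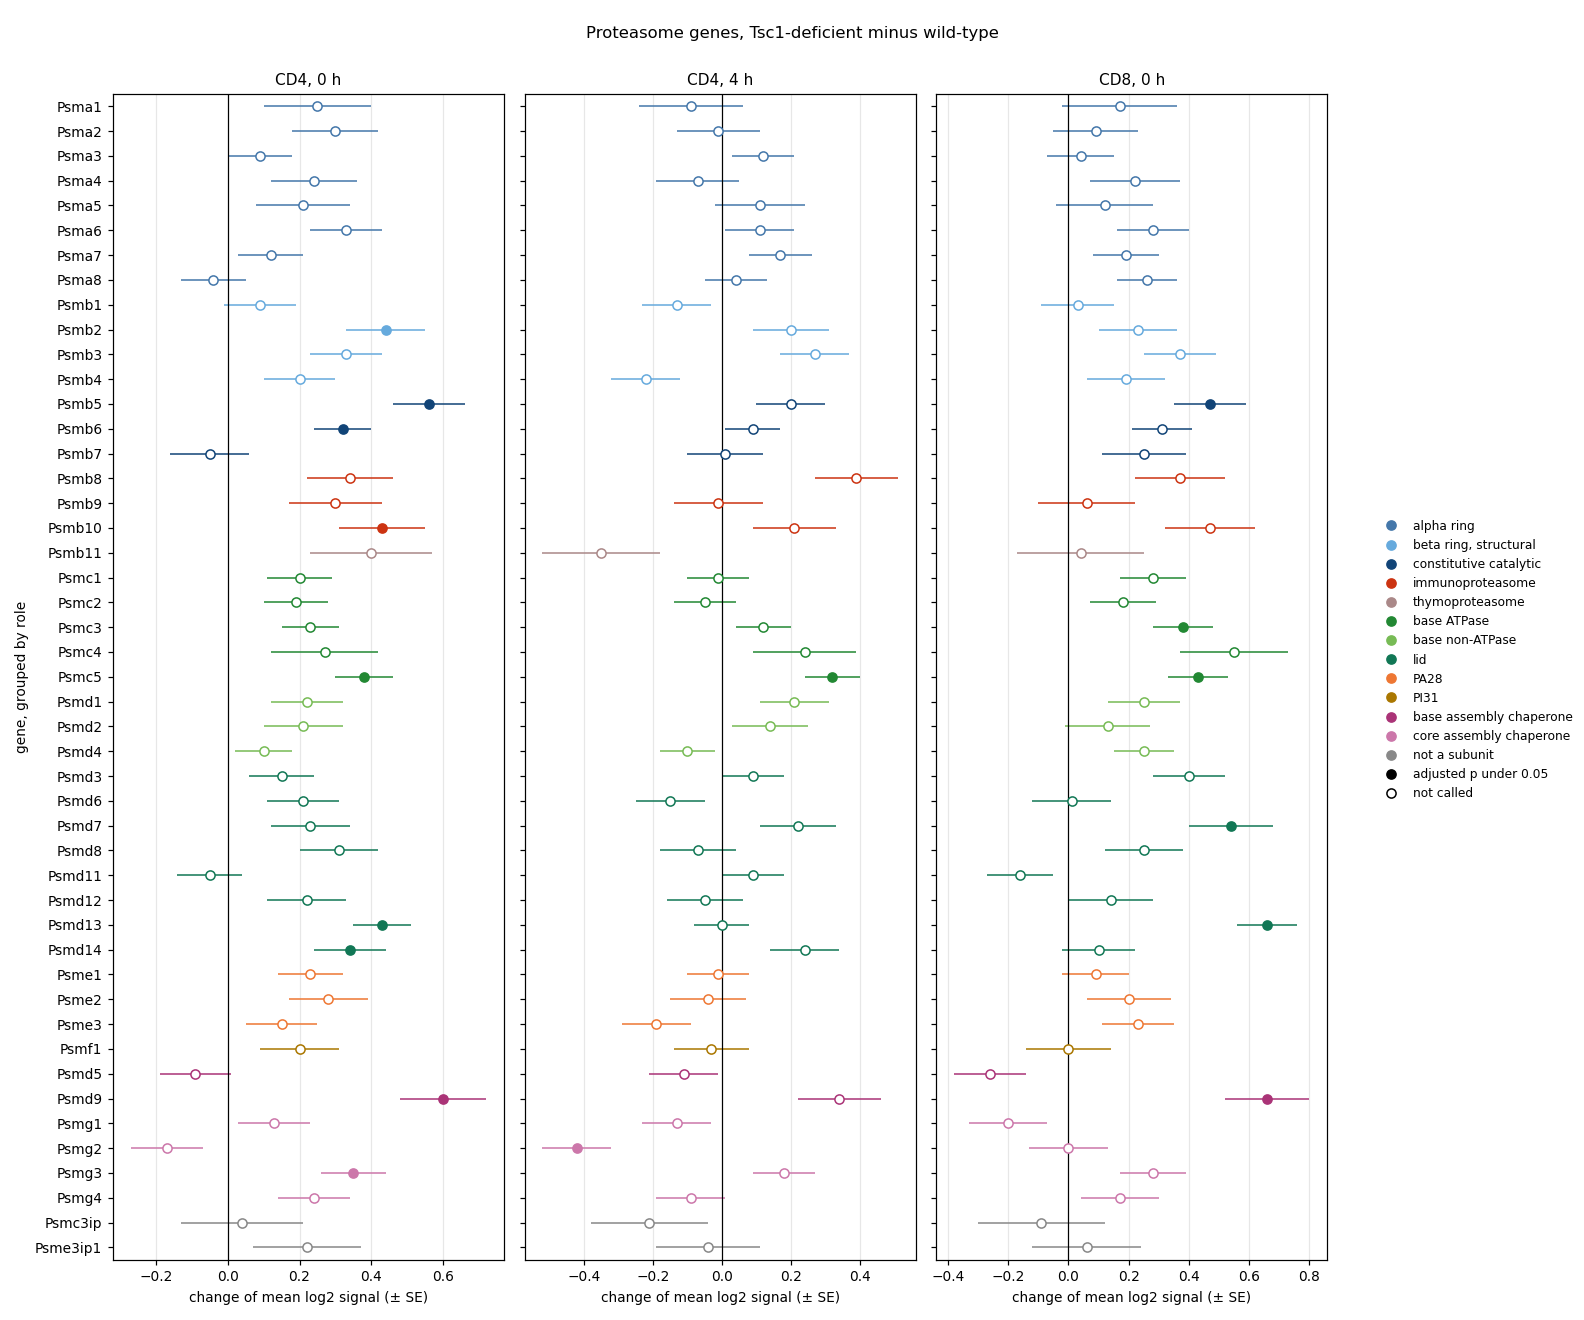
Change of mean log2 signal, Tsc1-deficient minus wild-type, for the 47 members grouped by role, in one panel per cell type and time. Points are changes, bars are standard errors, filled points have an adjusted p under 0.05, and the range of the axis differs between panels. Most points lie right of 0 at 0 h in both lineages, with medians over the 45 proteasome genes of 0.22 in CD8 and 0.23 in CD4 cells, and scatter around 0 at 4 h, with a median of 0.01.

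Among the constitutive catalytic subunits, Psmb5 and Psmb6 rose at rest and Psmb7 did not pass the test. Psmb5, which carries the chymotrypsin-like activity that proteasome inhibitor drugs block, had log2 signals of 9.91, 9.74 and 9.81 in Tsc1-deficient CD4 cells at 0 h, against 9.25, 9.26 and 9.28 in wild-type cells. The lowest deficient array was above the highest wild-type array, and the change was 0.56 ± 0.10, a 1.47-fold higher signal (limma, adjusted p = 0.00190). Psmb6, with the caspase-like activity, had 9.91, 9.84 and 9.77 in Tsc1-deficient cells and 9.50, 9.55 and 9.51 in wild-type cells, again without overlap (0.32 ± 0.08, limma, adjusted p = 0.0314). Psmb7, with the trypsin-like activity, had 8.90, 8.68 and 8.69 in Tsc1-deficient cells and 8.77, 8.93 and 8.74 in wild-type cells. These arrays of Psmb7 overlapped, and its difference was -0.05, with a 95% interval from -0.30 to 0.19.

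Of the 3 immunoproteasome subunits, 1, Psmb10, rose in resting Tsc1-deficient CD4 cells, and the brightest probe sets of all 3 separated the genotypes. Psmb10, the inducible counterpart of Psmb7, had 10.23, 10.51 and 10.07 in Tsc1-deficient cells and 9.85, 9.89 and 9.78 in wild-type cells (0.43 ± 0.12, limma, adjusted p = 0.0409). It kept its call in 1 of the 6 fits with an array left out, and lost it when a wild-type array or Tsc1-deficient replicate 1 or 2 was removed, with the adjusted p reaching 0.207. Psmb8, the counterpart of Psmb5, had 11.41, 11.50 and 11.17 in Tsc1-deficient cells and 11.01, 11.07 and 11.00 in wild-type cells, a difference of 0.34 with a 95% interval from 0.08 to 0.60 (limma, adjusted p = 0.131). Psmb9, the counterpart of Psmb6, had 10.53, 10.77 and 10.35 in Tsc1-deficient cells and 10.28, 10.25 and 10.22 in wild-type cells, a difference of 0.30 (limma, adjusted p = 0.254). The second probe set of Psmb9 overlapped, with 9.60, 9.78 and 9.46 in Tsc1-deficient cells and 9.54, 9.46 and 9.36 in wild-type cells and a difference of 0.16. Replicate 2 was the highest deficient array for all 3 subunits.

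Among the 12 genes of the alpha ring and the structural beta ring there was 1 call. The 8 alpha ring genes had changes between -0.04 and 0.33, a median of 0.23 and 0 calls by limma. Of the 4 structural beta genes, Psmb2 rose, with 9.59, 9.60 and 9.44 in Tsc1-deficient CD4 cells and 9.09, 9.12 and 9.12 in wild-type cells (0.44 ± 0.11, limma, adjusted p = 0.0235). The changes of the 4 genes ranged from 0.09 to 0.44, and the groups overlapped in 1 of them.

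Within the regulatory particle 3 of 16 genes rose at rest, with a median change of 0.22 over the 16. Psmd13, a lid subunit, had 8.23, 8.21 and 8.18 in Tsc1-deficient CD4 cells and 7.67, 7.84 and 7.82 in wild-type cells (0.43 ± 0.08, limma, adjusted p = 0.00506). Psmc5, a base ATPase, had 9.33, 9.20 and 9.20 in Tsc1-deficient cells and 8.80, 8.97 and 8.83 in wild-type cells (0.38 ± 0.08, limma, adjusted p = 0.0115). Psmd14, the lid protease that cuts ubiquitin off the substrate, differed by 0.34 and lost its call whichever of the 6 arrays was left out. The groups did not overlap for any of these genes.

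Of the 6 assembly chaperones 2 rose at rest. Psmd9, a chaperone of the base, had the highest change among the members' brightest probe sets, with 7.04, 7.05 and 6.92 in Tsc1-deficient CD4 cells and 6.21, 6.63 and 6.37 in wild-type cells (0.60 ± 0.12, limma, adjusted p = 0.00472). Its 2 dimmer probe sets, with means of 4.77 and 4.25, gave 0.00 and -0.19 without a call, and the mean of its 3 probe sets gave 0.14 (limma, adjusted p = 0.602), so the rise of Psmd9 rests on 1 probe set. Psmg3, a chaperone of the alpha ring, had 7.27, 7.22 and 7.19 in Tsc1-deficient cells and 6.92, 6.86 and 6.84 in wild-type cells (0.35 ± 0.09, limma, adjusted p = 0.0301), and lost its call whichever of the 6 arrays was left out. The other core chaperones had no call and did not all move together at rest, since Psmg2 differed by -0.17 and Psmg1 by 0.13. Psmg4 had means of 7.79 in Tsc1-deficient and 7.54 in wild-type cells. Of the 4 core chaperones, 3 separated the genotypes upward and 1 downward. None of the 3 PA28 genes was called at rest in CD4 cells, with differences of 0.23 for Psme1, 0.28 for Psme2 and 0.15 for Psme3, and unadjusted p of 0.0164, 0.0211 and 0.129.

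**Figure D2:**
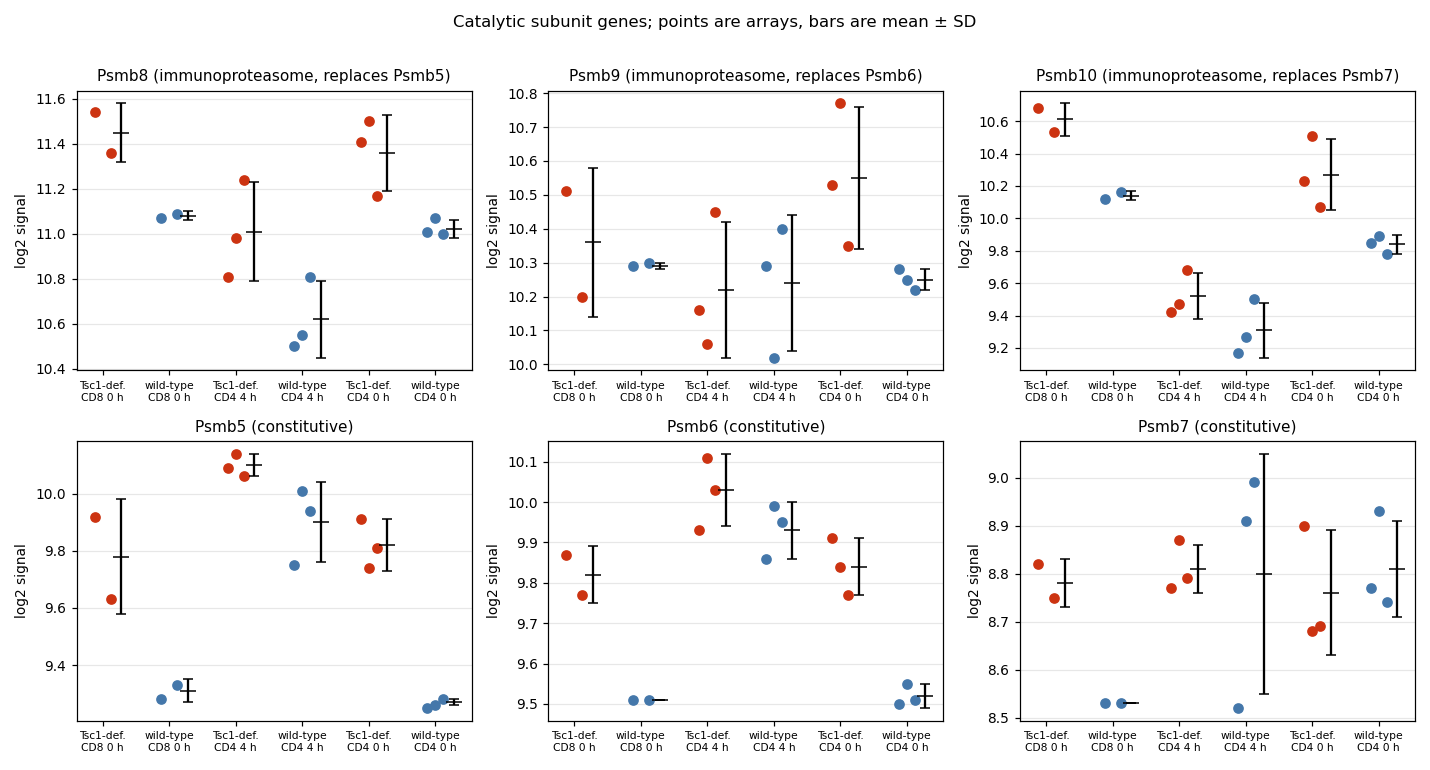
Log2 signal of the constitutive catalytic subunits and their immunoproteasome counterparts on every array, with Tsc1-deficient arrays in red and wild-type arrays in blue, and bars for the mean ± SD. The vertical range differs between panels, and levels of different genes are not comparable. Psmb5 is higher after 4 h in both genotypes and starts higher in deficient cells, whereas Psmb10 is lower after 4 h in both.

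Promoter windows from RefSeq on build GRCm38.p6 were read for 37 of the 45 proteasome genes, and Psma8 and Psmg2 were not among them. The windows run from 250 bases before to 50 bases after the start of the gene. Only the 250 bases before the start were searched, for these and for all genes. Several short motifs were searched on both strands. The 4 windows shown are of genes described above, and were picked because each holds 1 match of the motif named for it, in capitals. Psmb5, the chymotrypsin-like subunit, is shown with a heat shock element, and the chaperone Psmd9 and the immunoproteasome subunit Psmb10 with an E-box. Psmb8, which had no genotype call, is shown with a gamma-activated site, the letters bound by interferon-activated STAT factors. The stretches printed are the 250 bases before the start, 5′ to 3′ on the strand of the gene, at chr14:54617996-54618245 on the minus strand for Psmb5, chr5:123227940-123228189 on the plus strand for Psmd9, chr8:105938393-105938642 on the minus strand for Psmb10 and chr17:34197945-34198194 on the plus strand for Psmb8.
Psmb5: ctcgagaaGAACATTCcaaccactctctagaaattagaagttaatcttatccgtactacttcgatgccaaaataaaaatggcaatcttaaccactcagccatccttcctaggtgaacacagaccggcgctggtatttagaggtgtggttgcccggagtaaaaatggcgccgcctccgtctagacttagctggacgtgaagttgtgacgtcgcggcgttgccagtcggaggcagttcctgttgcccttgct
Psmd9: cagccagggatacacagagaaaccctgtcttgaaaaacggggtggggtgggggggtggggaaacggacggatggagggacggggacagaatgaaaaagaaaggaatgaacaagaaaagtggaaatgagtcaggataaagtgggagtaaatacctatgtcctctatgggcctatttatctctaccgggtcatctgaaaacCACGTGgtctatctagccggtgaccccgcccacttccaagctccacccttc
Psmb10: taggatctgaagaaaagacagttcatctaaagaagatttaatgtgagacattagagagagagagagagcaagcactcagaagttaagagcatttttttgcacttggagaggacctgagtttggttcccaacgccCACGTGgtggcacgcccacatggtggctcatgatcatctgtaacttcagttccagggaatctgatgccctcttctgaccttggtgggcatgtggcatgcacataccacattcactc
Psmb8: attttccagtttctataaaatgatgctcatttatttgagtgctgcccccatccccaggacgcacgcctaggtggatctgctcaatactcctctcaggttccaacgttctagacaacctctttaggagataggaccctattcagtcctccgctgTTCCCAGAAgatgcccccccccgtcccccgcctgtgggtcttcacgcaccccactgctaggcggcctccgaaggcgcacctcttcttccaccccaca

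The Psmd9 window also holds a match of the interferon-stimulated response element, left in lower case. The heat shock element GAANNTTC was found in 3 of the 37 proteasome genes, or 8.11%, against 7.73% of 27025 genes with a window. The E-box CACGTG was found in 4 of the 37 (Psma4, Psmb10, Psmd9 and Psme3), or 10.8%, against 6.86% of all genes. The gamma-activated site TTCNNNGAA, in Psmb8 and Psmg1, stood at 5.41% of the 37 and 8.13% of all genes, and the interferon-stimulated response element, searched as GAAA, any 2 bases and GAAA again, in Psmb3, Psmd4 and Psmd9, at 8.11% and 3.46%. The long antioxidant response element, bound by the proteasome regulator Nfe2l1 and its relative Nfe2l2, was searched in 1 form only. This form, TGA, any 4 bases and GCA, was found in 1 of the 37, Psmd12, or 2.70%, against 12.3% of all genes. The Psmb5 window shown holds TGACGTCGCG, which differs from this form in its last base alone, and such variants were not counted. The shares therefore do not cover all forms of the element. The CCAAT box CCAAT stood at 35.1% of the 37 and 37.5% of all genes, and the GC box GGGGCGGGG at 10.8% and 11.8%. The cyclic AMP response element TGACGTCA was found in 0 of the 37 and in 1.77% of all genes. Some of these matches can share letters, and a match describes the letters of the window and no binding.

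In resting CD8 cells the same direction prevailed. Of the 47 members 6 rose and 0 fell, and 3.64% and 2.18% of all genes were called in these directions. The change was above 0 in 41 of the 45 proteasome genes, with a median of 0.22, where the median of all genes was -0.01, and 30 separated the genotypes upward and 1, Psmd5, downward, against 22.9% and 23.1% of all genes. The risen members were Psmd9, Psmd13, Psmd7, Psmb5, Psmc5 and Psmc3, so 5 of the 6 are subunits of the core or the regulatory particle and 1 is a chaperone. Without Tsc1-deficient CD8 replicate 1 or without wild-type CD8 replicate 1 the count was 1, without wild-type replicate 2 it was 3, and Psmd13 kept its call in all 4 of these fits. Without the 2 arrays with raised Gapdh differences it was 8, all higher, and included all 6.

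Psmd13 had log2 signals of 8.60 and 8.53 in Tsc1-deficient CD8 cells, against 7.88 and 7.93 in wild-type CD8 cells (0.66 ± 0.10, limma, adjusted p = 0.000959). Psmd9 had 7.18 and 6.96 in Tsc1-deficient cells and 6.32 and 6.49 in wild-type cells (0.66 ± 0.14, limma, adjusted p = 0.0107), a call that ended with the mean of its 3 probe sets (0.45, limma, adjusted p = 0.065). Psmd7, the lid partner of the ubiquitin-cutting Psmd14, had 7.70 and 7.44 in Tsc1-deficient cells and 6.91 and 7.17 in wild-type cells (0.54 ± 0.14, limma, adjusted p = 0.0306), while its second probe set gave 0.14 without a call. In all of these the deficient arrays were above the wild-type arrays, and replicate 1 was the higher deficient array. Psmb5 had 9.92 and 9.63 in Tsc1-deficient cells and 9.28 and 9.33 in wild-type cells (0.47 ± 0.12, limma, adjusted p = 0.0283). Psmb6 had 9.87 and 9.77 in Tsc1-deficient cells and 9.51 on both arrays of wild-type cells, and Psmb7 had 8.82 and 8.75 in Tsc1-deficient cells and 8.53 on both wild-type arrays, with differences of 0.31 and 0.25 and no call.

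No immunoproteasome or PA28 gene was called in CD8 cells. Psmb8 had 11.54 and 11.36 in Tsc1-deficient CD8 cells and 11.07 and 11.09 in wild-type cells, a difference of 0.37 (limma, adjusted p = 0.180). Psmb10 had 10.68 and 10.53 in Tsc1-deficient cells and 10.12 and 10.16 in wild-type cells, a difference of 0.47 (limma, adjusted p = 0.0720). Psmb9 had 10.51 and 10.20 in Tsc1-deficient cells and 10.29 and 10.30 in wild-type cells. Psmb9 thus overlapped between the genotypes, and Psmb8 and Psmb10 did not. For PA28, the values were 11.75 and 11.77 in Tsc1-deficient cells and 11.72 and 11.62 in wild-type cells for Psme1, with a difference of 0.09. For Psme2 they were 11.67 and 11.54 in Tsc1-deficient cells and 11.40 on both wild-type arrays, with a difference of 0.20. Psme3 had 7.57 and 7.40 in Tsc1-deficient cells and 7.23 and 7.29 in wild-type cells, with a difference of 0.23.

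The lineages share no arrays in these comparisons. Psmb5, Psmc5, Psmd9 and Psmd13 were called in both, which is 66.7% of the 6 called in CD8 and 44.4% of the 9 called in CD4 cells. Across the 43 expressed proteasome genes the CD8 and CD4 changes correlated at r = 0.67 and rho = 0.59, a description over genes measured on the same arrays, and across the 5055 genes of like brightness r was 0.69. The difference of the Tsc1 effects between CD8 and CD4 cells was called for 0 members by limma, against 0.0702% of all genes higher and 0.0468% lower. An unadjusted p under 0.05 was seen for 1 member, a count not set against the share of all genes at that cut.

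After 4 h of stimulation the genotypes differed little. Relative to wild-type CD4 cells at 4 h, 1 member rose and 1 fell in Tsc1-deficient cells, where 5.59% and 3.86% of all genes were called in these directions, and the median change of the 45 proteasome genes was 0.01. Psmc5 had 9.45, 9.51 and 9.49 in Tsc1-deficient cells and 9.17, 9.13 and 9.17 in wild-type cells (0.32 ± 0.08, limma, adjusted p = 0.0203). Psmg2, a chaperone of the alpha ring, had 6.64, 6.94 and 6.92 in Tsc1-deficient cells and 7.19, 7.34 and 7.24 in wild-type cells (-0.42 ± 0.10, limma, adjusted p = 0.0147). The groups did not overlap in either gene, and Tsc1-deficient replicate 1, the array with the raised Gapdh difference, was the lowest of the deficient arrays in both. Psmg2 lost its call without Tsc1-deficient replicate 1 or wild-type replicate 2, and Psmc5 without any wild-type array or Tsc1-deficient replicate 2. The count was 0 without wild-type replicate 2 and 1 without wild-type replicate 1 or Tsc1-deficient replicate 2. Without the 2 arrays with raised Gapdh differences 5 members rose and 1 fell, with Psma5, Psmb8, Psmd9 and Psmd14 added to the risen ones and a median of 0.07.

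The change from 0 h to 4 h of stimulation called more members than the genotype did. It also called more of all genes, 6041 in Tsc1-deficient and 5451 in wild-type cells. No group was held for 4 h without stimulation, so effects of stimulation and of 4 h in culture cannot be told apart. For genotype, 997 of all genes were called in CD4 cells at 0 h, 1616 in CD4 cells at 4 h and 995 in CD8 cells. In Tsc1-deficient CD4 cells 8 of the 47 members rose and 9 fell at 4 h. These shares were near the 13.8% and 21.5% of all genes called in these directions. In wild-type CD4 cells 19 rose and 5 fell, where 12.8% and 19.1% of all genes were called. The median change of the 45 proteasome genes was -0.02 in Tsc1-deficient and 0.17 in wild-type cells, and that of all genes was -0.02 in Tsc1-deficient and -0.01 in wild-type cells. When each array was centred on its own median the median of all genes moved to 0.14 in Tsc1-deficient and 0.15 in wild-type cells, and the calls became 18 higher and 5 lower in Tsc1-deficient cells and 25 higher and 3 lower in wild-type cells. After a further quantile normalization they were 12 higher and 7 lower in Tsc1-deficient cells. The split in Tsc1-deficient cells therefore turned with the scaling, while Psmg1, Psmg2, Psmb10 and Psmb4 stayed lower and Psmd1, Psmd7, Psmd11 and Psme3 higher under centring. Without the 2 arrays with raised Gapdh differences 14 rose and 9 fell in Tsc1-deficient cells, and 20 rose and 6 fell in wild-type cells.

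**Figure D3:**
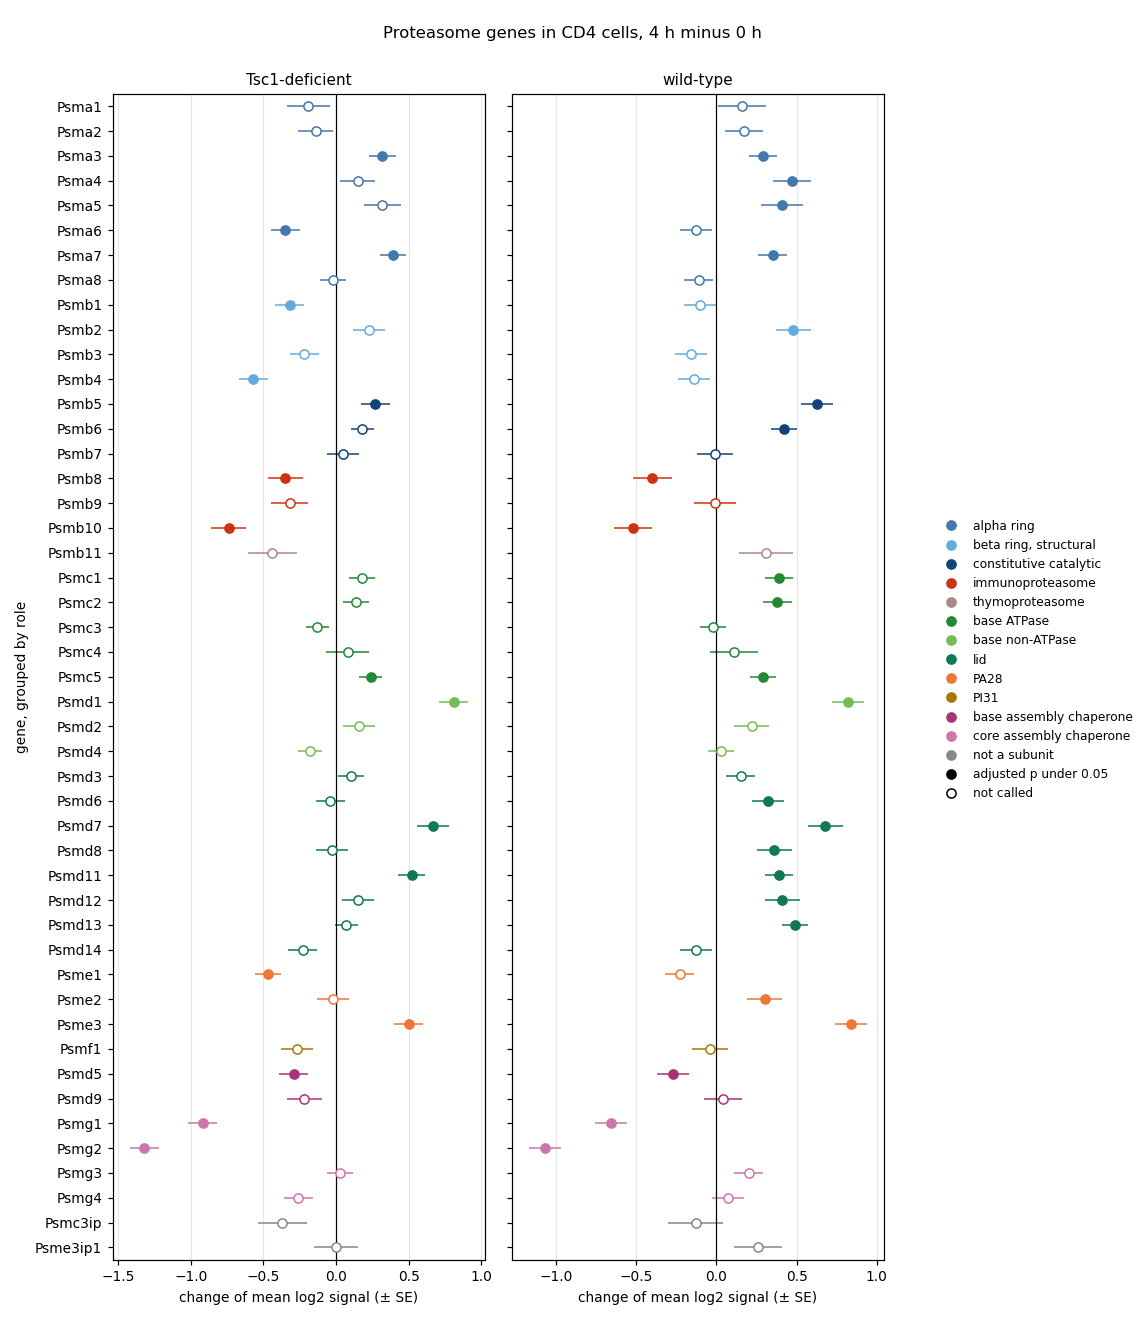
Change of mean log2 signal, 4 h minus 0 h, for the 47 members grouped by role, in Tsc1-deficient and in wild-type CD4 cells. Points are changes, bars are standard errors, and filled points have an adjusted p under 0.05. The chaperones Psmg1 and Psmg2 and the immunoproteasome subunit Psmb10 lie left of 0 in both panels, and Psmd1, Psmd7, Psmd11 and Psme3 lie right of 0.

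Of the 30 expressed genes of the constitutive core and the regulatory particle, 7 rose and 3 fell in Tsc1-deficient cells, and 17 rose and 0 fell in wild-type cells. The 7 are 23.3% of the 30 in Tsc1-deficient cells, where 26.2% of the genes of like brightness rose and 35.7% fell, so the share that rose was near the background. In wild-type cells 56.7% of the 30 rose, where 25.6% of the genes of like brightness rose and 30.1% fell. The other risen members were PA28 genes, Psme3 in both genotypes and Psme2 in wild-type cells. Besides the genes given below, Psma7 rose by 0.39, Psma3 by 0.32 and Psmc5 by 0.24 in Tsc1-deficient cells. In wild-type cells the lid gene Psmd13 rose by 0.49, the structural beta gene Psmb2 by 0.48, the alpha ring genes Psma4 and Psma5 by 0.47 and 0.41, and the base ATPases Psmc1 and Psmc2 by 0.39 and 0.38. Psmd1, the base scaffold that docks substrate receptors, had 9.99, 9.70 and 9.64 at 4 h against 8.94, 8.98 and 8.99 at 0 h in Tsc1-deficient cells (0.81 ± 0.10, limma, adjusted p = 5.23e-06). In wild-type cells it had 9.56, 9.61 and 9.52 at 4 h against 8.83, 8.83 and 8.58 at 0 h (0.82 ± 0.10, limma, adjusted p = 5.95e-06). The stimulated arrays of Psmd1 were above the resting ones in both genotypes.

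Psmd7 changed by 0.67 ± 0.11 in Tsc1-deficient cells, with 7.86, 8.26 and 8.09 at 4 h against 7.34, 7.48 and 7.39 at 0 h. It changed by 0.68 ± 0.11 in wild-type cells, with 7.79, 7.82 and 7.94 at 4 h against 7.12, 7.24 and 7.16 at 0 h. Psmd11, a lid scaffold, had 9.45, 9.38 and 9.19 at 4 h against 8.88, 8.81 and 8.76 at 0 h in Tsc1-deficient cells (0.52 ± 0.09, limma, adjusted p = 0.000181). It changed by 0.39 in wild-type cells. These lid genes rose in both genotypes without overlap of the times.

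Psmb5 rose at 4 h in both genotypes. It had 10.09, 10.14 and 10.06 at 4 h against 9.91, 9.74 and 9.81 at 0 h in Tsc1-deficient cells (0.27 ± 0.10, limma, adjusted p = 0.0356), a call kept in 1 of 6 fits with an array left out. Wild-type cells had 9.75, 10.01 and 9.94 at 4 h against 9.25, 9.26 and 9.28 at 0 h (0.63 ± 0.10, limma, adjusted p = 5.79e-05). The resting deficient arrays lay within the range of the stimulated wild-type arrays or just below it. Psmb6 changed by 0.18 in Tsc1-deficient cells (limma, adjusted p = 0.110) and rose by 0.42 in wild-type cells (limma, adjusted p = 0.000828). At 4 h its values were 9.93, 10.11 and 10.03 in Tsc1-deficient and 9.86, 9.99 and 9.95 in wild-type cells. Psmb7 showed differences of 0.05 in Tsc1-deficient and -0.01 in wild-type cells, with 8.77, 8.87 and 8.79 at 4 h in Tsc1-deficient and 8.52, 8.91 and 8.99 in wild-type cells.

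Of the immunoproteasome subunits, Psmb10 and Psmb8 fell at 4 h in both genotypes and Psmb9 had no call. Psmb10 had 9.42, 9.47 and 9.68 at 4 h against 10.23, 10.51 and 10.07 at 0 h in Tsc1-deficient cells (-0.74 ± 0.12, limma, adjusted p = 6.95e-05). Wild-type signals were 9.17, 9.27 and 9.50 at 4 h against 9.85, 9.89 and 9.78 at 0 h (-0.52 ± 0.12, limma, adjusted p = 0.00215). All stimulated arrays of Psmb10 were below all resting arrays of the same genotype. Psmb8 had 10.81, 10.98 and 11.24 at 4 h against 11.41, 11.50 and 11.17 at 0 h in Tsc1-deficient cells (-0.35 ± 0.12, limma, adjusted p = 0.0311), where the times overlapped. In wild-type cells it had 10.50, 10.55 and 10.81 at 4 h against 11.01, 11.07 and 11.00 at 0 h (-0.40 ± 0.12, limma, adjusted p = 0.0169). Both calls of Psmb8 ended when arrays were centred, with adjusted p of 0.212 in Tsc1-deficient and 0.134 in wild-type cells, and the Tsc1-deficient call ended without replicate 1 or 2 of either time. The wild-type call ended without replicate 2 of either time or replicate 1 of 4 h.

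For Psmb9 the probe sets disagreed. Its brightest had 10.16, 10.06 and 10.45 at 4 h against 10.53, 10.77 and 10.35 at 0 h in Tsc1-deficient cells, a difference of -0.32, and 10.29, 10.02 and 10.40 at 4 h against 10.28, 10.25 and 10.22 at 0 h in wild-type cells, a difference of -0.01, neither called. Its second probe set rose by 0.50 in Tsc1-deficient and 0.62 in wild-type cells (limma over probe sets, adjusted p of 0.00651 and 0.00146), so no direction is given for Psmb9. Among genes of the interferon response, 10 of 14 rose and 0 fell in Tsc1-deficient cells at 4 h, where 13.8% of all genes rose and 21.5% fell. In wild-type cells 5 of the 14 rose and 4 fell, where 12.8% of all genes rose and 19.1% fell. Irf1, an interferon-induced activator of immunoproteasome genes, rose by 1.78 in Tsc1-deficient and 1.84 in wild-type cells.

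The PA28 genes split by subunit. Psme3, the nuclear gamma form, had 7.75, 7.85 and 7.60 at 4 h against 7.22, 7.22 and 7.28 at 0 h in Tsc1-deficient cells (0.50 ± 0.10, limma, adjusted p = 0.000418). In wild-type cells it had 7.96, 8.02 and 7.79 at 4 h against 7.10, 7.15 and 7.02 at 0 h (0.84 ± 0.10, limma, adjusted p = 2.18e-06), while its second probe set gave 0.00 in Tsc1-deficient and 0.33 in wild-type cells with no call. Psme1, the alpha form that pairs with Psme2 in the interferon-induced cap, fell in Tsc1-deficient cells, with 11.17, 11.12 and 11.16 at 4 h against 11.61, 11.77 and 11.49 at 0 h (-0.47 ± 0.09, limma, adjusted p = 0.000283). In wild-type cells Psme1 had 11.17, 11.12 and 11.20 at 4 h against 11.42, 11.40 and 11.35 at 0 h, a difference of -0.23 (limma, adjusted p = 0.0570). All stimulated arrays of Psme1 were below all resting ones in both genotypes. Psme2 had 11.35, 11.57 and 11.74 at 4 h against 11.62, 11.70 and 11.40 at 0 h in Tsc1-deficient cells, a difference of -0.02. Wild-type signals of Psme2 were 11.52, 11.57 and 11.69 at 4 h against 11.39, 11.26 and 11.23 at 0 h (0.30 ± 0.11, limma, adjusted p = 0.0471), a call that ended without 5 of the 6 arrays, all but wild-type 0 h replicate 1.

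The largest decreases among the members were those of the core chaperones Psmg1 and Psmg2, which form a dimer that starts the alpha ring. Psmg2 had 6.64, 6.94 and 6.92 at 4 h against 8.14, 8.26 and 8.06 at 0 h in Tsc1-deficient cells (-1.32 ± 0.10, limma, adjusted p = 2.06e-08), a 2.49-fold lower signal. In the wild type it had 7.19, 7.34 and 7.24 at 4 h against 8.27, 8.30 and 8.41 at 0 h (-1.07 ± 0.10, limma, adjusted p = 3.20e-07). Its second probe set fell too, by 1.52 in Tsc1-deficient and by 1.09 in wild-type cells. Psmg1 had 7.77, 7.66 and 7.74 at 4 h against 8.63, 8.68 and 8.62 at 0 h in Tsc1-deficient cells (-0.92 ± 0.10, limma, adjusted p = 1.63e-06). In wild-type cells it had 7.78, 7.88 and 7.90 at 4 h against 8.56, 8.50 and 8.47 at 0 h (-0.66 ± 0.10, limma, adjusted p = 7.55e-05). The other dimer of core chaperones, Psmg3 and Psmg4, had no call in either genotype. Psmd5, a chaperone of the base, fell by 0.29 in Tsc1-deficient and by 0.27 in wild-type cells, calls that ended under centring with adjusted p of 0.264 and 0.372.

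**Figure D4:**
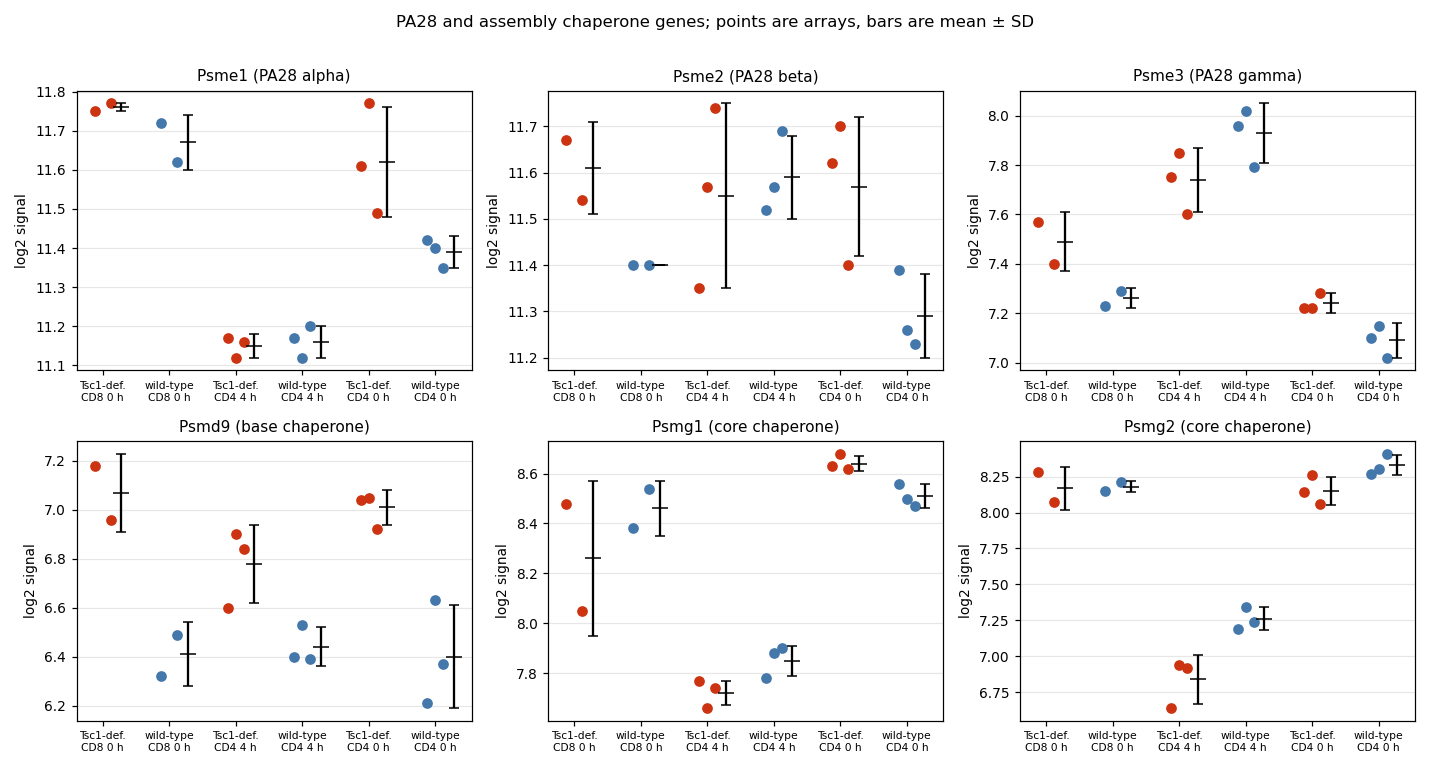
Log2 signal of the PA28 genes and of 3 assembly chaperones on every array, with Tsc1-deficient arrays in red and wild-type arrays in blue, and bars for the mean ± SD. The vertical range differs between panels. Psmg1 and Psmg2 are lower at 4 h on every array of both genotypes, and Psmd9 is higher in the Tsc1-deficient group of each pair.

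Psmb4, Psma6 and Psmb1 passed the test as lower at 4 h in Tsc1-deficient cells and had no call in wild-type cells. Psmb4, a structural beta subunit, had 9.98, 10.26 and 10.40 at 4 h against 10.81, 10.81 and 10.73 at 0 h in Tsc1-deficient cells (-0.57 ± 0.10, limma, adjusted p = 0.000276), with the array of raised Gapdh difference lowest. The wild-type signals of Psmb4 were 10.31, 10.50 and 10.50 at 4 h against 10.58, 10.57 and 10.58 at 0 h, a difference of -0.14 without a call. Psma6 and Psmb1 fell by 0.35 and by 0.32 in Tsc1-deficient cells and lost their calls under centring. The difference of the 4 h responses between genotypes was tested itself and was called for 0 of the 47 members by limma, against 0.544% of all genes higher and 0.661% lower. Of the members, 8 had an unadjusted p under 0.05, a count not set against the share of all genes at that cut. The difference was -0.42 for Psmd13, with a 95% interval from -0.68 to -0.17 (limma, adjusted p = 0.115), -0.43 for Psmb4 (limma, adjusted p = 0.216) and -0.36 for Psmb5, with an interval from -0.65 to -0.07 (limma, adjusted p = 0.288). It was above 0 in 6 of the 45 proteasome genes, with a median of -0.22, where the median of all genes was -0.01. Without the 2 arrays with raised Gapdh differences the median of the proteasome genes was -0.16, again with 0 members called. The change of Psmb4 in Tsc1-deficient cells was then -0.45.

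The responses of the 2 genotypes share no arrays. The 13 members called in both are 76.5% of the 17 called in Tsc1-deficient and 54.2% of the 24 called in wild-type cells. Over the 43 expressed proteasome genes the responses correlated at r = 0.93 and rho = 0.89, a description over genes of the same arrays, and over the 5055 genes of like brightness r was also 0.93.

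**Figure D5:**
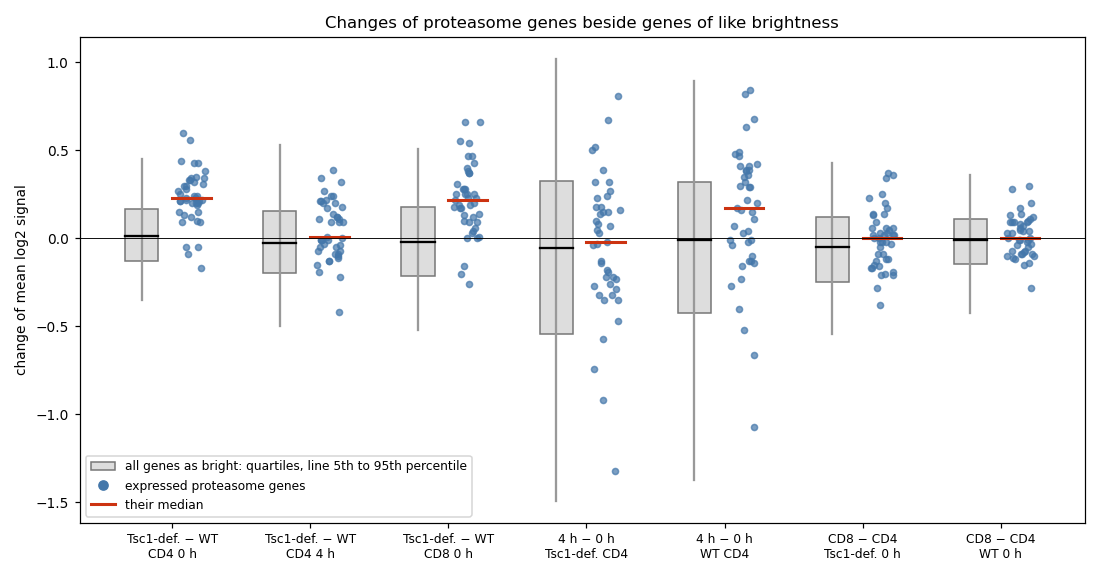
Changes of the 43 expressed proteasome genes as points, beside the range of all genes of like brightness, for the genotype and stimulation comparisons. For Tsc1-deficient minus wild-type CD4 cells at 0 h, the members have a median of 0.23 and the 5055 genes one of 0.01. For the response of Tsc1-deficient cells, members and other genes are centred near 0.

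Between the lineages at rest the proteasome genes were close. In Tsc1-deficient cells the CD8 minus CD4 difference was called higher for 2 members, both of the lid, and lower for 0, against 3.08% and 3.60% of all genes. Psmd13 had 8.60 and 8.53 in Tsc1-deficient CD8 and 8.23, 8.21 and 8.18 in Tsc1-deficient CD4 cells (0.36 ± 0.09, limma, adjusted p = 0.0282). Psmd3 had 8.17 and 8.26 in Tsc1-deficient CD8 and 7.87, 7.82 and 7.84 in Tsc1-deficient CD4 cells (0.37 ± 0.11, limma, adjusted p = 0.0451). Neither group pair overlapped, and neither call was kept when any of the 5 arrays was left out. In wild-type cells CD8 minus CD4 differences gave 0 calls by limma, against 2.47% of all genes higher and 2.57% lower. An unadjusted p under 0.05 was seen for 3 members, a count not set against the share of all genes at that cut. Psme1, at 11.72 and 11.62 in wild-type CD8 and 11.42, 11.40 and 11.35 in wild-type CD4 cells, and Psmb10, at 10.12 and 10.16 in CD8 and 9.85, 9.89 and 9.78 in CD4 cells, were 2 of these 3, with the higher values in CD8 cells. The third, Psmb7, went the other way, with 8.53 on both wild-type CD8 arrays against 8.77, 8.93 and 8.74 in wild-type CD4 cells, a difference of -0.28 (limma, adjusted p = 0.292).

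Genes around the proteasome outside the symbol rule were read from fixed lists. The counts of every list, markers included, are to be read beside the share of all genes called in the same comparison. Of 9 measured partners, 3 rose in Tsc1-deficient CD4 cells at rest, where 3.96% of all genes rose and 1.87% fell. They were Uchl5, a deubiquitinase of the cap, by 0.71, Zfand2a by 0.50 and Pomp, the maturation factor of the core, by 0.37. In CD8 cells 0 rose and 1, Ecpas, fell by 0.57, where 3.64% of all genes rose and 2.18% fell. At 4 h relative to 0 h, 2 partners rose and 1 fell in Tsc1-deficient cells, where 13.8% of all genes rose and 21.5% fell. In wild-type cells 4 rose and 1 fell, where 12.8% of all genes rose and 19.1% fell. Of the 14 genes around Nfe2l1, the transcription factor that raises proteasome genes when the complex is inhibited, Nfe2l1 itself differed by 0.07 between Tsc1-deficient and wild-type CD8 cells at rest and by -0.04 in CD4 cells, without calls. It rose at 4 h by 0.58 in Tsc1-deficient and by 0.57 in wild-type cells.

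Its relative Nfe2l2, the regulator of antioxidant genes, was the 1 gene of that list that rose with Tsc1 deficiency in both resting lineages. It had 9.91, 10.01 and 9.95 in Tsc1-deficient and 9.09, 8.96 and 9.03 in wild-type CD4 cells at 0 h (0.93 ± 0.15, limma, adjusted p = 0.000914). In CD8 cells it had 9.59 and 9.21 in Tsc1-deficient and 8.31 and 8.35 in wild-type cells (1.07 ± 0.18, limma, adjusted p = 0.00207). The groups did not overlap in either lineage. Of 7 ubiquitin and shuttle genes 0 were called by limma in the resting genotype comparisons. Of 11 genes of class I antigen processing, the trimming peptidase Erap1 rose by 0.51 in Tsc1-deficient CD4 cells at rest and 0 were called in CD8 cells.

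Markers of other cells moved with the genotype as well. The markers of a list were summed on the linear scale, where the brightest weigh most, and the sum is given as log2. For 6 neutrophil markers it was 8.61 to 9.75 in Tsc1-deficient and 6.63 to 8.26 in wild-type CD8 cells. It was 8.43 to 10.16 in Tsc1-deficient and 6.01 to 6.93 in wild-type CD4 cells at 4 h, and 8.03 to 10.25 in Tsc1-deficient and 6.51 to 8.01 in wild-type CD4 cells at 0 h. Of the 6, 0 rose in CD8 cells, 4 in CD4 cells at 4 h and 1 in CD4 cells at 0 h, and in resting CD4 cells the group mean of 5 exceeded the table median in Tsc1-deficient and that of 3 in wild-type cells. For 5 NK cell markers the sum was 11.73 to 11.85 in Tsc1-deficient and 11.78 to 11.87 in wild-type CD8 cells, 8.05 to 8.70 in Tsc1-deficient and 7.52 to 7.73 in wild-type CD4 cells at 4 h, and 10.41 to 10.68 in Tsc1-deficient and 9.08 to 9.19 in wild-type CD4 cells at 0 h. Of these 5, Gzma rose in CD8 cells, Gzma and Eomes in CD4 cells at 4 h, and Klrd1 and Gzma in CD4 cells at 0 h, genes that effector T cells also express. Klrd1 had the highest mean of these 5 in every group, whereas the means of Ncr1 and Klrb1c were below the table median in every group.

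For 8 macrophage, monocyte and dendritic cell markers the sum was 9.41 to 9.47 in Tsc1-deficient and 9.20 to 9.42 in wild-type CD8 cells, 8.94 to 9.28 in Tsc1-deficient and 8.44 to 8.78 in wild-type CD4 cells at 4 h, and 9.47 to 9.87 in Tsc1-deficient and 9.23 to 9.43 in wild-type CD4 cells at 0 h. Of these 8, Lyz2, Cd68, Mpeg1 and Cd74 rose in CD4 cells at 4 h, and 0 were called by limma at rest in either lineage. For 4 B cell markers it was 8.60 to 8.66 in Tsc1-deficient and 7.76 to 7.92 in wild-type CD8 cells, 6.29 to 6.68 in Tsc1-deficient and 6.05 to 6.22 in wild-type CD4 cells at 4 h, and 7.04 to 7.73 in Tsc1-deficient and 6.74 to 7.12 in wild-type CD4 cells at 0 h. Cd79b was the 1 B cell marker that rose, in both resting lineages.

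Among markers of the T cells themselves, Cd8a and Runx3 fell by 0.84 and by 0.55 in resting Tsc1-deficient CD4 cells, 2 of 3 CD8 markers. At 4 h Cd3g and Cd28, 2 of 4 T cell markers, fell by 0.83 and by 0.61 in Tsc1-deficient CD4 cells, and Lef1, the 1 naive T cell marker measured, fell by 0.83. Of 2 CD4 markers and 5 thymus markers, which include the dim Psmb11 of thymic epithelium, 0 were called by limma for genotype. The part of all these markers in the proteasome changes was not tested.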

How the data were processed

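The deposited values are log2 signals that the authors made with RMA in Partek 6.5, per the submitters' processing notes, and they were used as deposited. No genome build is stated in the sources used here. Of 45141 probe sets, 104 controls were left out and the 28898 that name 1 gene were kept. The brightest probe set of a gene, by its mean signal on the 16 arrays, stood for it, and 2 that name Psmd13 together with another gene were left out. RefSeq changed 0 symbols. Differences of group means were tested 2-sided with limma 3.58.1 in R 4.3.3, with group means fitted jointly to all 16 arrays (residual degrees of freedom 10, prior SD 0.146, prior degrees of freedom 6.23) and Benjamini-Hochberg adjustment over 17097 genes within each of 9 comparisons. The pipeline was tested on simulated data.

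Samples were grouped by genotype, cell type and stimulation. The treatment text of the labels names another deficient strain in 1 sentence, and titles and genotype entries, which name Tsc1, were followed. Per-array values are given for the catalytic and PA28 genes and for up to 4 members called higher and 4 lower with the highest absolute change in each comparison. Psmd13, Psmc5 and Psmg3 in resting CD4 cells, and the pair of genes named between wild-type lineages, were given per array after their values were seen. The members and lists were chosen with earlier results of these data known. Alternatives were the mean of a gene's probe sets, array weights, centring on the array median, a replicate block, leaving out dim genes, a further quantile normalization, a robust prior with an intensity trend, a fit of the compared groups alone, each array left out, and both arrays of raised Gapdh difference left out. Plots were made in Python 3.11.15 with matplotlib 3.10.9.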

Additional observations from a re-analysis of the deposited data

How the results depend on the processing

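Of 1546 alternative values for the members named, 84 kept their direction and lost their call, 30 gained one and 0 calls reversed. The other 1432 were counted as unchanged, and among them the direction of uncalled values was not checked. Counts of called members that moved by over 1.5 times were these. For Tsc1-deficient minus wild-type CD4 cells at 0 h, where 9 were called, centring gave 4, array weights 17, the fit without the 2 arrays of raised Gapdh difference 14, and single arrays left out 3 to 7. For the same contrast at 4 h, where 2 were called, centring gave 1, the trend with a robust prior and array weights 4 each, the fit without the 2 arrays 6, the compared groups alone 0, and single arrays left out 0 to 3. For CD8 cells, where 6 were called, the filter on dim genes gave 10, which adjusts over fewer genes, the compared groups alone 0, and single arrays left out 1 to 5. For CD8 minus CD4 in Tsc1-deficient cells, where 2 were called, array weights and the compared groups alone gave 0, the fit without the 2 arrays 1, and single arrays left out 0 to 1. In wild-type cells that contrast had 0 calls, and 1 with the trend and robust prior. With single arrays left out the stimulation counts were 12 to 18 in Tsc1-deficient and 18 to 21 in wild-type cells, and both tests of a difference between responses stayed at 0 under every alternative run.

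Numbers in the sample titles are neighbours for the 0 h and 4 h arrays of CD4 cells, but the labels do not say that they pair arrays. Deviations of such pairs correlated at 0.047 to 0.115 over 9354 genes. Each CD4 array was set against the 3 arrays of its genotype at the other time, and 10 of 12 correlated best with their neighbour. Both arrays of a pair were counted, so these checks are not independent, and they are a hint from the data and not from the design. With these numbers as a replicate block, at a consensus correlation of 0.03, the counts were 9, 2 and 6 for genotype in CD4 cells at 0 h, CD4 cells at 4 h and CD8 cells, and 18 and 24 for stimulation in Tsc1-deficient and wild-type cells. Groups of 2 or 3 arrays limit every comparison, and Psma8 and Psmb11 have signals too dim to read changes from.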

Other observations

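Some genes around the proteasome changed at 4 h in both genotypes. Ngly1, the deglycosylating enzyme needed to activate Nfe2l1, fell by 1.46 in Tsc1-deficient and by 1.08 in wild-type CD4 cells, whereas Mafg, a small Maf partner of the same factor, rose by 1.78 in Tsc1-deficient and by 1.52 in wild-type cells. The interferon response genes differed by genotype at 4 h, where 7 of 14 rose and 0 fell in Tsc1-deficient relative to wild-type cells, among them Ifit3 by 1.66 and Usp18 by 1.65. Of all genes, 5.59% rose and 3.86% fell in that comparison. In resting CD4 cells 2 of the 14 interferon genes were called, Gbp3 with 1.30 and Gbp2 with 1.06, where 3.96% of all genes rose. In CD8 cells 0 of the 14 were called by limma. Nploc4 and Ubqln4, which hand ubiquitinated proteins to the proteasome, rose at 4 h by 0.51 and 0.68 in Tsc1-deficient and by 0.66 and 0.49 in wild-type cells. Others of that list went the other way, without overlap of the times. Mean signals of Ubqln2 were 8.86 at 4 h against 9.18 at 0 h in Tsc1-deficient and 8.93 against 9.39 in wild-type cells. Those of Ufd1 were 7.32 at 4 h against 7.62 at 0 h in Tsc1-deficient and 7.33 against 7.48 in wild-type cells.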
